A study of Homo sapiens with 28 samples.

Results

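Cassette exons that the control cells neither always include nor always skip were examined in 2 leukemia cell lines depleted of the splicing factor MBNL1. A cassette exon is an internal exon that is either kept in the mature mRNA or skipped. Its inclusion, in percent, is read here from spliced junctions as an estimate of the share of transcripts that keep it. That estimate depends on which junction of the exon is read, as described below. The deposited splicing table compares, for each event, an examined exon-exon junction with a background junction, and such a junction pair is the unit counted here. The exons were chosen by their level in the controls. Junction pairs annotated as cassette exons were kept where at least 8 of the 12 shNT control libraries had a value and the mean control inclusion was above 10% and below 90%. The rule kept 11133 junction pairs, in 5078 clusters of overlapping junctions and 4198 genes, of 30769 cassette exon pairs and 100814 pairs of all event types. A further 8824 cassette exon pairs were nearly always included in controls and 3774 were nearly silent.

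The cells were MOLM13, which carries the MLL-AF9 translocation, and MV4;11, which carries MLL-AF4, both human acute myeloid leukemia lines. All libraries came from cells transduced with lentivirus, carrying either the MBNL1 hairpin 64, the MBNL1 hairpin 65 or the non-targeting control hairpin shNT. MOLM13 gave 3 shNT and 3 hairpin 64 libraries after puromycin selection, which the study places at day 4, then 4 hairpin 65 libraries with a second set of 3 shNT libraries, and 3 hairpin 64 with 3 shNT libraries at day 12. MV4;11 gave 3 libraries each of shNT, hairpin 64 and hairpin 65. No source used here gives the day of the hairpin 65 or MV4;11 libraries. The day 12 libraries were sequenced separately on another instrument, so day and sequencing cannot be told apart between day 4 and day 12. Of 12 myeloid leukemia markers, 8 were at 1 RPKM (reads per kilobase of transcript, scaled to library size) or more in every library of both lines, while KIT in MOLM13 and MPO in MV4;11 were under 1 in at least 1 library and CD34 and CEBPA were under 1 in all. Of 12 markers of other cell types, 9 were under 1 RPKM in every MOLM13 library and 11 in every MV4;11 library, the exception in MV4;11 being CD3D at 2.41 to 11.1 RPKM. The exceptions in MOLM13 were CD3D at up to 12.2 RPKM, COL1A1 at up to 2.76 and CD79A at up to 1.33. The RPKM of these 12 markers summed to between 0.979 and 14.1 per MOLM13 library and between 2.92 and 12.3 per MV4;11 library, and their part in the results was not tested.

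MBNL1 belongs to the muscleblind family of zinc finger proteins, which bind short RNA motifs of the form YGCY, where Y is C or T in the DNA spelling. Bound upstream of or within a cassette exon, muscleblind proteins tend to promote its skipping, and bound in the intron downstream they tend to promote its inclusion. Loss of free muscleblind protein on expanded repeat RNA causes much of the missplicing of myotonic dystrophy, and MBNL1 is highly expressed in MLL-rearranged leukemia. MBNL1 transcripts averaged 3.23 ± 0.493 RPKM (SD, n = 3) with hairpin 64 at day 4 in MOLM13 against 22.5 ± 5.34 (n = 3) with shNT, and 3.72 ± 0.236 against 22.4 ± 3.53 RPKM (n = 3 each) in MV4;11. Hairpin 65 left more MBNL1, at 12.7 ± 3.13 RPKM (n = 4) against 18.9 ± 1.34 (n = 3) in MOLM13 and 12.0 ± 1.07 (n = 3) in MV4;11. At day 12 MBNL1 averaged 4.40 ± 0.26 RPKM with hairpin 64 and 26.4 ± 0.657 with shNT (n = 3 each). The knockdown and control libraries did not overlap in any of these comparisons.

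The exon sequences that follow are some of those on which the results below turn, so that the skipped and the gained segments can be read beside their values. All are from GRCh37 (hg19), 5′ to 3′ on the transcribed strand, with capitals marking YGCY motifs. These are CGCC with its variant CGCT, and the forms that open with T instead, namely TGCC with its variant TGCT. The search covered that strand only, and overlapping matches count separately. The first set holds exons that were kept in most control transcripts and skipped with hairpin 64. They are short, from 12 to 90 bases, and each is a multiple of 3 bases long and coding over its whole length. Of these 6 exons, 5 hold no motif and GIT2 holds 2. ZDHHC7 (111 bases, 3 motifs) and LRRFIP2 (72 bases, no motif) were also skipped with hairpin 64 and are not shown.
GIT2, chr12:110383065-110383154, minus strand: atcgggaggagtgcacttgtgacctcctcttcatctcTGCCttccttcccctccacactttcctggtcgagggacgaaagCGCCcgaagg
NUMA1, chr11:71723447-71723488, minus strand: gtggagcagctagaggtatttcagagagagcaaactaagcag
ACOT9, chrX:23752458-23752484, minus strand: catgttcatctatacatgtgaatcatg
BAZ2B, chr2:160253585-160253611, minus strand: gagttggagaggcatagactagatatg
MYO5A, chr15:52630007-52630081, minus strand: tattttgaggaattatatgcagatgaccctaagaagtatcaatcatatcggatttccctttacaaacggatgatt
DNM2, 12-base exon, chr19:10919245-10919256, plus strand: ggggagatcctg

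The second set holds exons that were a minor form in the controls and the main form with hairpin 64. They run from 54 to 177 bases and, by the same choice, are all coding over their whole length. The DNM2 exon of 139 bases is the only one of the 5 that is not a multiple of 3. That choice left out the exons of DNM1 (37 bases) and FAM188A (52 bases), which were also included more and are not a multiple of 3. The DNM2 pair reads the junction that leaves this exon, which was placed by annotation alone. Whether transcripts without it hold another exon in its place is not shown, so no shift of the reading frame can be inferred. NUMB holds 7 motifs, FMNL3 holds 5, PPP1R12A 3, DNM2 1 and MBNL1 none.
NUMB, chr14:73745989-73746132, minus strand: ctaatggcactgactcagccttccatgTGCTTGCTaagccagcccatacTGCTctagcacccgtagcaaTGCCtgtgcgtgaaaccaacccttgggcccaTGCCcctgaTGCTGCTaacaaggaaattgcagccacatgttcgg
PPP1R12A, chr12:80199372-80199548, minus strand: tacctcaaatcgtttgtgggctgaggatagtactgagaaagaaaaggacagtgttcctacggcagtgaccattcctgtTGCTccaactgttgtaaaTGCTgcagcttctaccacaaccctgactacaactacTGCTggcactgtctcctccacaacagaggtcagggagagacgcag
FMNL3, chr12:50052225-50052377, minus strand: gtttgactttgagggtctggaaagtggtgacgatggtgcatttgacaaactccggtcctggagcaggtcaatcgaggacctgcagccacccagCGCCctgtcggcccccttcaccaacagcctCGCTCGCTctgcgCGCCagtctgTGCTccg
MBNL1, chr3:152164493-152164546, plus strand: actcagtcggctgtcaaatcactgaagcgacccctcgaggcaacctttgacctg
DNM2, 139-base exon, chr19:10908056-10908194, plus strand: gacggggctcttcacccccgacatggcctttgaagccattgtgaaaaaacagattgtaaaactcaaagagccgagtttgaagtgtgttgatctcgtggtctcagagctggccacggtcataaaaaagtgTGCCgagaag

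The introns beside 6 of these exons are shown over the 100 bases nearest the exon, so that their motifs can be read too. These are the windows with 5 or more motifs, a limit set after the counts were seen. GIT2, NUMA1 and MYO5A, which were included less, and FMNL3, which was included more, held 6 motifs each downstream, a number that 1.18% of the 4904 located exons reached or passed in that window. MBNL1 held 10 upstream, as no other of the 4904 exons did, and PPP1R12A held 5, which 2.67% reached or passed. At least 1 motif stood in 67.1% of upstream and 66.8% of downstream windows of this length, and a match in the letters is not a measured binding site.
GIT2 intron, downstream, chr12:110382965-110383064, minus strand: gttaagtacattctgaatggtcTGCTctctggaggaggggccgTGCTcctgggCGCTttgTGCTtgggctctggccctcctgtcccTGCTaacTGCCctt
NUMA1 intron, downstream, chr11:71723347-71723446, minus strand: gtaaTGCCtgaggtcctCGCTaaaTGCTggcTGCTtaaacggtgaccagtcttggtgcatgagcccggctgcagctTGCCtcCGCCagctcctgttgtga
MYO5A intron, downstream, chr15:52629907-52630006, minus strand: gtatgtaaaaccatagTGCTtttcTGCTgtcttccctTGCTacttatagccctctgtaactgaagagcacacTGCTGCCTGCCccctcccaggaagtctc
FMNL3 intron, downstream, chr12:50052125-50052224, minus strand: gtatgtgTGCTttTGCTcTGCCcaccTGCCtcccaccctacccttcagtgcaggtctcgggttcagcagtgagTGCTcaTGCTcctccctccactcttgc
MBNL1 intron, upstream, chr3:152164393-152164492, plus strand: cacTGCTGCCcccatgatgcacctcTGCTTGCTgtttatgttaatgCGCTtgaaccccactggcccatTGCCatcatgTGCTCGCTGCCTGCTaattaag
PPP1R12A intron, upstream, chr12:80199549-80199648, minus strand: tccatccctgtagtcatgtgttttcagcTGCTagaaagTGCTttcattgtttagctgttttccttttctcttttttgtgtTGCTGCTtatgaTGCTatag

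Because the control libraries chose the exons, their control levels are a description only. Mean control inclusion had a median of 56.0%, and its interquartile range ran from 25.4% to 79.8%. It was not spread evenly, since 24.5% of pairs lay between 80 and 90% and 18.2% between 10 and 20%, while 7.21% lay between 40 and 50%. The standard deviation of a pair over the control libraries had a median of 8.97 points, a point being 1 percentage point of inclusion. Just inside the limits were PIGX at 10.001% and MORC3 at 10.004%, and SSH1 at 89.997% and ADCY9 at 89.998%. Just outside were CMC1 at 9.9971% and GRB10 at 9.9975%, and MRPL55 at 90.002%. A value was present in all 12 control libraries for 8756 pairs and in all 28 libraries for 8286.

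One exon could be read in more than one way. For 7924 pairs the examined junction was the one that includes the exon, and for 3209 it was the one that skips it, in which case inclusion was taken as 1 minus the deposited value. Both kinds were present for 2755 exons, where the value from the inclusion junction was the lower in 2749, by a median of 15.6 points. Mean control inclusion was 69.6% from the inclusion junction and 83.8% from the skipping junction for GIT2, and 13.4 and 26.5% for MAP3K4. The gap thus had the same direction in nearly all of these exons. How far the calculation of the values sets this gap was not tested, so it is not read as a disagreement between junctions. The levels of a named exon below therefore belong to 1 junction pair, and 903 exons (32.8% of those read both ways) differed by over 20 points between their kinds of pair. The pairs could be placed on 1 annotated exon for 8658 of 11133, which gave 4904 distinct exons. A further 1391 pairs spanned several exons, 305 met no annotated exon and 779 had junctions that share no end. The located exons had a median length of 113 bases, 44.8% were a multiple of 3 long and 57.9% were coding. Among exons nearly always included these values were 125 bases, 36.3% and 92.1%, and among nearly silent exons 103 bases, 40.1% and 24.7%, with 1346 of the 4904 exons also present in another class through another pair.

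Inclusion was then compared between knockdown and shNT libraries. A cluster was called where a junction pair differed by over 10 points with an unadjusted p of 0.01 or less in limma's moderated test, with 1 pair per cluster. The text gives Benjamini-Hochberg adjusted p-values over all events in the table. With hairpin 64 at day 4 in MOLM13, partly included exons were called in 299 of 4878 clusters tested (6.13%), 110 included more and 189 included less, where the background over all cassette exon clusters was 3.84% (1.4% more and 2.44% less) and 3.69% over clusters of all event types. In MV4;11 with hairpin 64, 322 of 4893 clusters were called (6.58%), 123 more and 199 less, against a background of 4.05% (1.5% and 2.55%) and 3.69% over all event types. At an adjusted p of 0.05 or less, 17 more and 31 less remained in MOLM13, and 19 and 35 in MV4;11. With the replicate block, which the numbers of the MOLM13 libraries at day 4 allow, 103 more and 206 less were called by unadjusted p, but only 0 and 1 had a limma adjusted p of 0.05 or less. Of the junction pairs picked by the naming rule, 28 had an adjusted p of 0.05 or less in MOLM13 at day 4, and with the block all 28 were still called by unadjusted p, with limma adjusted p between 0.0776 and 0.266. The median difference over all pairs tested was -1.34 points in MOLM13 and -0.616 in MV4;11. Exons nearly always included were called in 1.15% and 1.01% of clusters and nearly silent ones in 1.07% and 1.05%. A level near 0 or 100% leaves little room on 1 side, and the controls set the classes, so these shares are given without a test. The bar chart of calls per comparison shows all 6 comparisons.

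**Figure D1:**
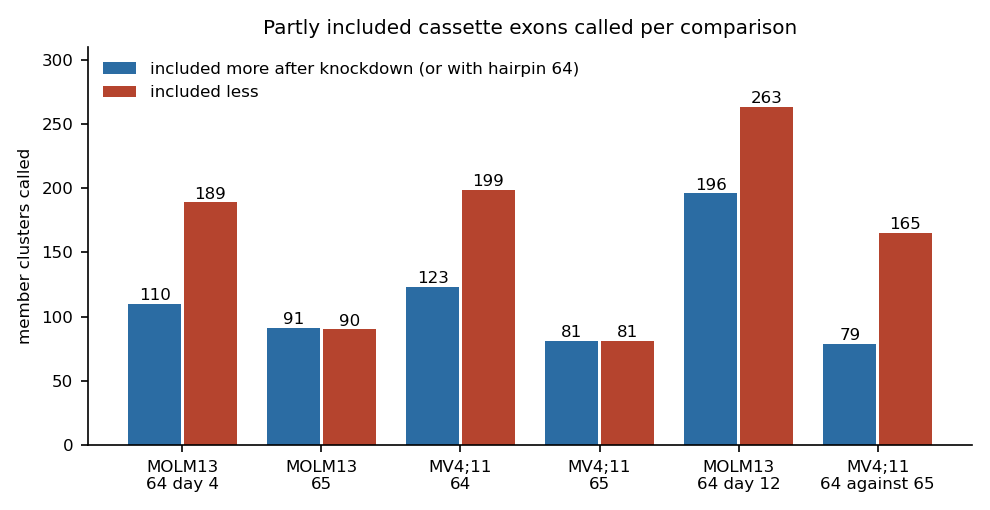
Number of junction clusters holding a partly included cassette exon that was called, for the 5 comparisons of knockdown with shNT and for hairpin 64 against 65 in MV4;11, with clusters included more and included less as separate bars. Hairpin 64 gave 189, 199 and 263 clusters included less in MOLM13 at day 4, MV4;11 and MOLM13 at day 12, and hairpin 65 gave 90 and 81.

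The 2 lines have separate control libraries, so the same junction pair can be compared between them. Of 444 pairs called in MOLM13 at day 4 and 480 called in MV4;11 with hairpin 64, 177 were shared (39.9% and 36.9%), and all 177 went the same way. By cluster, 107 were shared (35.8% and 33.2%), of which 99 went the same way and 8 the opposite way through another pair. Counted apart from this, the 177 shared pairs lay in 99 clusters, 65 with a pair included less and 38 with a pair included more. Exons of these clusters are described next in groups by what the host gene does. All libraries of a group other than those at day 12 may be technical repeats, since the sources state separate cultures only for day 12, and the p-values then measure only the spread between these libraries.

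The exons skipped with hairpin 64 included several in genes for the cytoskeleton and vesicle traffic. GIT2, an adaptor that stimulates hydrolysis of GTP on ARF proteins, included its 90-base exon at 80.0, 78.6 and 88.7% in the MOLM13 shNT libraries and at 3.02, 5.92 and 17.5% with hairpin 64, a difference of -73.64 ± 5.14 points (SE, limma adjusted p = 0.0317). In MV4;11 the values were 84.4, 81.4 and 80.6% with shNT and 6.51, 11.6 and 12.1% with hairpin 64 (adjusted p = 0.00403). Every knockdown library lay far below every control in both lines. MYO5A, a myosin motor that carries vesicles and organelles along actin, included its 75-base exon at 75.8, 71.4 and 59.5% in shNT and at 9.52, 3.23 and 9.09% with hairpin 64 in MOLM13 (-61.62 points, limma adjusted p = 0.0442). LRRFIP2, a regulator of Toll-like receptor and Wnt signaling, lost its 72-base exon to 5.84% from 84.6% in MOLM13 and to 11.9% from 83.4% in MV4;11 (limma adjusted p = 0.0171 and 0.013). INF2, a formin that builds and severs actin filaments, fell from 89.4 to 8.87% and from 88.2 to 16.8% at its 57-base exon (limma adjusted p = 0.0338 and 0.0345).

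Microexons of 24 or 27 bases were skipped in genes with unrelated roles. ACOT9, a mitochondrial acyl-CoA thioesterase, included its 27-base exon at 83.5, 92.6 and 90.4% in shNT and at 12.6, 9.23 and 15.5% with hairpin 64 in MOLM13 (-76.37 ± 3.12 points, limma adjusted p = 0.00906). In MV4;11 it stood at 95.2, 93.9 and 96.8% against 19.6, 13.9 and 18.8% (-77.87 ± 1.87 points, limma adjusted p = 0.00271). The ACOT9 libraries of a group stayed close together in both lines, and the groups did not overlap. BAZ2B encodes a bromodomain protein of chromatin remodeling complexes. Its 27-base exon went from 89.9, 89.7 and 82.5% to 4.05, 3.03 and 6.12% in MOLM13 (-82.94 ± 2.48 points, limma adjusted p = 0.00447) and from 79.0 to 15.4% on average in MV4;11 (limma adjusted p = 0.0506). MTMR1, a phosphoinositide phosphatase of the myotubularin family, fell from 88.3 to 2.22% at its 24-base exon in MOLM13 and from 80.8 to 11.7% in MV4;11 (limma adjusted p = 0.0336 and 0.108). CCDC88C, a Dishevelled-binding protein of Wnt signaling, fell from 87.7 to 2.46% and from 84.3 to 6.5% at a 442-base exon (limma adjusted p = 0.0172 and 0.0281). CIT, a kinase of cytokinesis, fell from 91.3 to 2.08% and from 74.4% to 0 (limma adjusted p = 0.0767 and 0.0909), but only 2 hairpin 64 libraries of each line, and 2 of the 3 MOLM13 shNT libraries at day 4, had a value.

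Exons included more with hairpin 64 lay in genes with a range of roles. TRERF1, a zinc finger transcriptional regulator, was included at 11.6, 23.0 and 12.9% in the MOLM13 shNT libraries and at 97.3, 93.5 and 93.5% with hairpin 64 (78.92 ± 3.61 points, limma adjusted p = 0.0118). FMNL3, a formin, included its 153-base exon at 27.6, 13.8 and 15.2% against 100, 91.7 and 90.7% in MOLM13, and at 2.67, 9.09 and 20% against 87.3, 90.6 and 85.9% in MV4;11 (limma adjusted p = 0.0278 and 0.0248). In both genes the exon went from a minor form to nearly the only form. NUMB, an inhibitor of Notch signaling, included its 144-base exon at 16.0, 22.9 and 18.0% against 84.2, 84.1 and 73.1% in MOLM13 (61.52 ± 4.01 points, limma adjusted p = 0.0263). In MV4;11 NUMB stood at 12.0, 13.3 and 18.1% against 79.4, 76.7 and 78.5% (63.72 ± 1.94 points, limma adjusted p = 0.00476). MAP3K4, a kinase of stress signaling, holds 16 motifs in its 150-base exon and went from 18.4 to 89.2% in MOLM13 and from 9.13 to 69.9% in MV4;11 (limma adjusted p = 0.0668 and 0.0557). DNM1, a dynamin, went from 16.8 to 80.9% and from 7.31 to 78.0% (limma adjusted p = 0.00575 and 0.0767). A second DNM1 junction pair read 74.0% in the controls at day 4, so the DNM1 level depends on the pair. FGFR1, a receptor tyrosine kinase, averaged 20.7% against 90.1% in MOLM13 (limma adjusted p = 0.223), from 2 hairpin 64 libraries. With a replicate block in limma the FGFR1 call was lost (adjusted p = 0.601), as it was without shNT library 1 or 3 (adjusted p up to 0.5). FAM188A, a deubiquitinating enzyme, averaged 27.5% against 79.1% (limma adjusted p = 0.228), and its call was lost with the block (limma adjusted p = 0.48) and without library 2 or 3 of either group (adjusted p up to 0.452).

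MBNL1 transcripts themselves hold such an exon. Its 54-base exon, which favors nuclear localization of the MBNL1 protein, was included at 12.3, 13.1 and 13.0% in the MOLM13 shNT libraries and at 91.3, 86.5 and 79.8% with hairpin 64 (73.03 ± 3.2 points, limma adjusted p = 0.011). In MV4;11 the values were 11.8, 9.47 and 12.2% against 81.8, 80.1 and 71.9% (66.78 ± 3.03 points, limma adjusted p = 0.0112). The control libraries lay close together, and the groups did not overlap in either line. With hairpin 65 in MV4;11 the exon stood at 37.9, 36.9 and 28.7% (23.35 ± 2.91 points above shNT, limma adjusted p = 0.247). The 4 hairpin 65 libraries of MOLM13 read 45.9, 30, 22.4 and 22.8% against 11.3, 13.7 and 11.2% in their shNT set, which did not overlap but was not called. These levels were read by a skipping junction and refer to the MBNL1 transcripts left after knockdown, whose number the knockdown lowers.

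DNM2, the dynamin that pinches vesicles off the membrane, held 2 exons that moved in opposite directions. The 139-base exon went from 30.6, 27.5 and 32.2% to 91.7, 91.5 and 94.9% in MOLM13 (62.59 ± 1.65 points, limma adjusted p = 0.00334) and from 22.7, 25 and 22.8% to 73.7, 73.6 and 75% in MV4;11 (50.57 ± 0.808 points, limma adjusted p = 0.000963). The libraries of each group lay close together. The 12-base exon went from 64.3, 81.8 and 71.4% to 18.9, 17.7 and 19.4% in MV4;11 (-53.84 ± 4.88 points, limma adjusted p = 0.0558). In MOLM13 at day 4 it read 64.3, 73.9 and 52.5% against 34.0, 27.0 and 37.8% (limma adjusted p = 0.321). That MOLM13 call was lost with the replicate block (limma adjusted p = 0.552) and without any hairpin 64 library or shNT library 1 or 2 (adjusted p up to 0.583).

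Some exons were called in the same direction in all 5 comparisons of knockdown with shNT, in which the MV4;11 comparisons share 3 shNT libraries. There were 18 such clusters, 11 with a pair included less and 8 with a pair included more. NUMA1, which organizes spindle poles, included its 42-base exon at 64.0, 66.1 and 74.2% in MOLM13 shNT and at 22.9, 20.2 and 24.9% with hairpin 64 (-45.44 ± 3.23 points, limma adjusted p = 0.0326). In MV4;11 it stood at 77.4, 68.2 and 65.5% with shNT, at 5.71, 3.56 and 7.83% with hairpin 64 (limma adjusted p = 0.0168) and at 29.2, 29.8 and 25.7% with hairpin 65 (limma adjusted p = 0.126). ZDHHC7, a palmitoyltransferase, included its 111-base exon at 75.2, 78.5 and 68.9% against 31.8, 20.1 and 13.4% in MOLM13 (limma adjusted p = 0.0854). These 2 exons kept an intermediate level with hairpin 65. PTK2B, a kinase of the focal adhesion kinase family, included its 126-base exon at 34.3, 35.3 and 39.1% against 93.4, 92.3 and 82.0% in MOLM13, and at 19.6, 17.2 and 18.0% against 78.4, 74.9 and 71.2% in MV4;11 (limma adjusted p = 0.0323 and 0.00618). PPP1R12A, the targeting subunit of myosin phosphatase, included its 177-base exon at 36.9, 49.5 and 40% against 91.5, 94.2 and 78.7% in MOLM13 (46.01 ± 5.79 points, limma adjusted p = 0.116). LRCH4, a leucine-rich repeat membrane protein, went from 37.3 to 90.5% in MOLM13 and from 21.9 to 66.7% in MV4;11 (limma adjusted p = 0.0224 and 0.0332). The panels of inclusion per library show 11 of these exons.

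**Figure D2:**
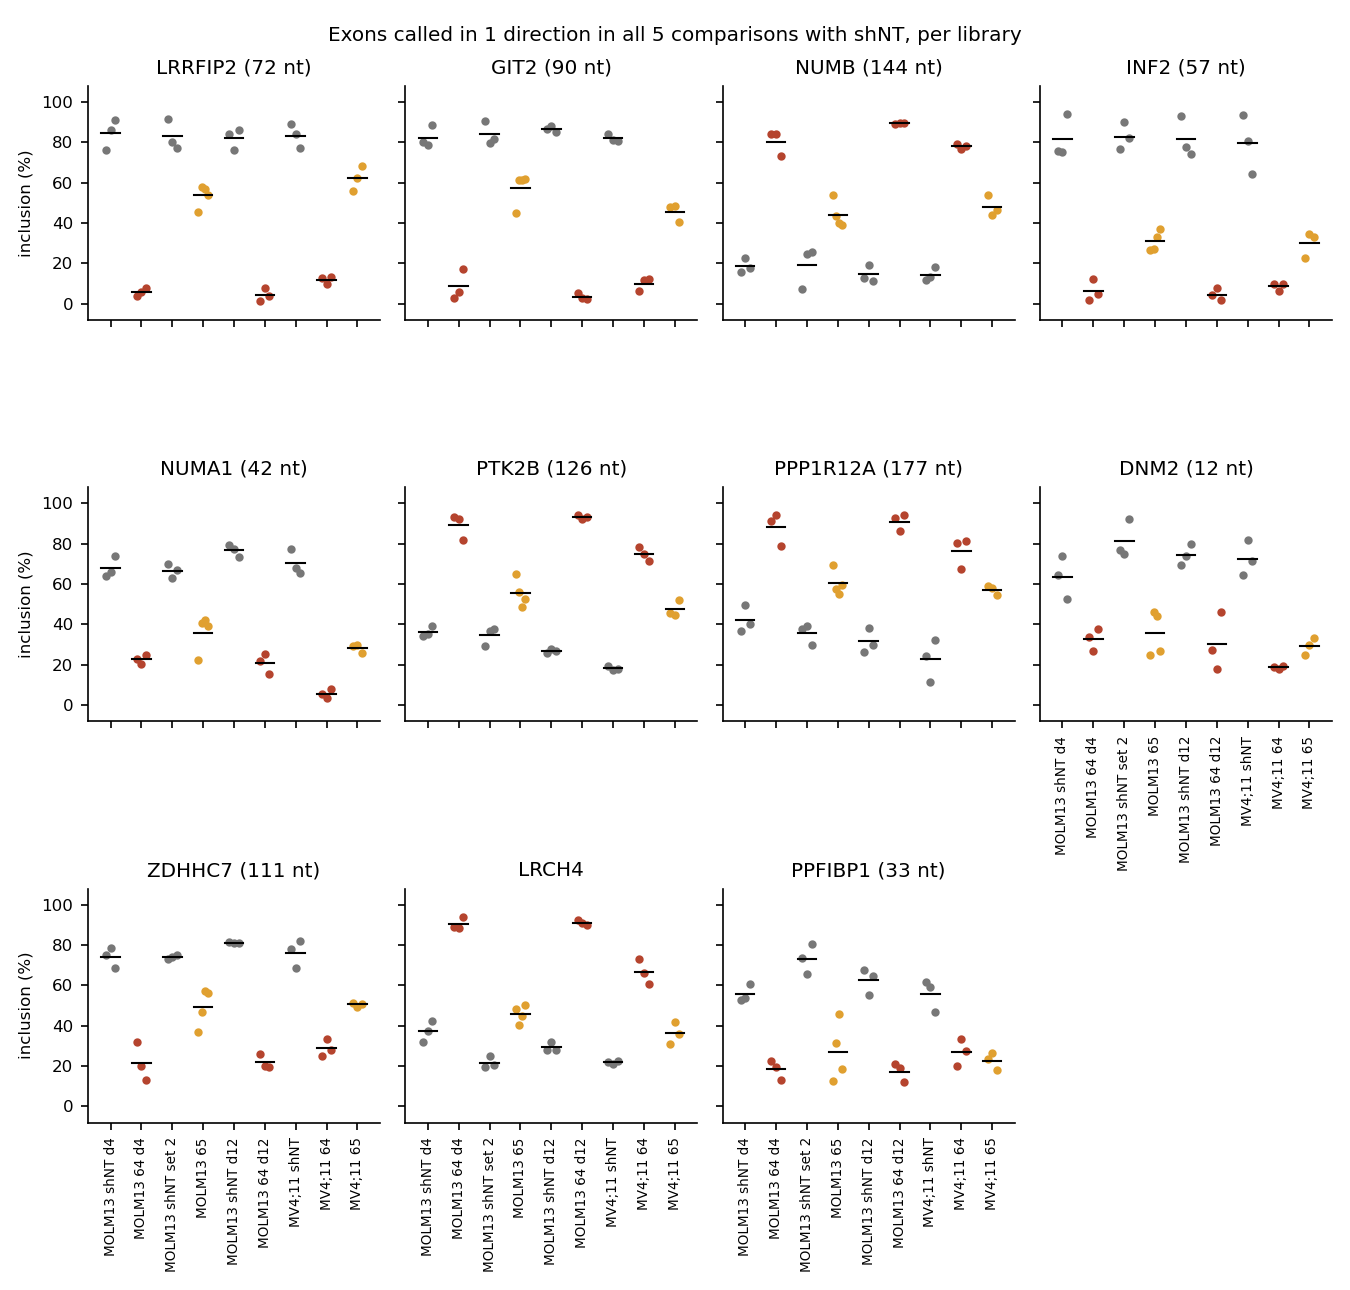
Inclusion in percent (vertical axis) in every library of the 9 groups (horizontal axis) for 11 cassette exons called in the same direction in all 5 comparisons with shNT, where a bar marks each group's mean. The hairpin 64 libraries lie farthest from shNT in most panels, as for NUMA1 in MV4;11 at 5.70% against 70.4%, and PPFIBP1 with hairpin 65 (22.8%) lies as low as with hairpin 64 (26.9%).

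PPFIBP1 encodes liprin beta-1, a scaffold of cell edges and lymphatic vessels, and its 33-base exon was read at 61.8, 59.2 and 46.9% with shNT in MV4;11. With hairpin 64 it stood at 20, 33.3 and 27.5% (-29.03 ± 5.74 points, limma adjusted p = 0.275) and with hairpin 65 at 23.6, 26.6 and 18.2% (-33.18 ± 4.98 points, limma adjusted p = 0.316). The hairpin libraries overlapped each other, and hairpin 64 against 65 gave no call. The hairpin 64 call was lost without any hairpin 64 library or shNT library 1 or 2 (adjusted p up to 0.497). In MOLM13 the hairpin 65 libraries read 12.5, 31.6, 45.7 and 18.6% against 73.5, 65.9 and 80.5% in their shNT set (-46.18 ± 9.01 points, limma adjusted p = 0.293), a call lost without shNT library x1 or x3 (adjusted p up to 0.512).

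Hairpin 65 alone gave fewer calls. In MOLM13, 91 clusters were included more and 90 less of 4880 tested (3.71%), against a background of 2.25% (1.17% and 1.08%) and 2.99% over all event types. In MV4;11, 81 were included more and 81 less of 4919 (3.29%), against 2.05% (1.04% and 1.02%) and 2.21% over all event types. At an adjusted p of 0.05 or less, limma kept 2 included more and 0 included less in each line. The MOLM13 counts rose to 192 and 138 without shNT library x1 of the second set. The exon with the lowest adjusted p among those named was MAP3K4, whose second junction pair read 55.8, 51.7, 55.2 and 56.6% with hairpin 65 in MOLM13 and 22.1, 19.1 and 22.1% with shNT (33.72 ± 1.46 points, limma adjusted p = 0.00978). INF2 read 40.7, 51.7, 50.6 and 54.4% with hairpin 65 against 87.1, 93.7 and 89.3% (-40.69 ± 3.73 points, limma adjusted p = 0.0862). In MV4;11 INF2 read 49.2, 53.1 and 49.0% with hairpin 65 against 97.4, 88.9 and 78.4% with shNT (limma adjusted p = 0.29). The groups did not overlap for MAP3K4 or INF2. BAZ2B, by contrast, read 79.5, 78.1, 89.9 and 80.0% with hairpin 65 in MOLM13 and 88.9, 79.5 and 92.9% with shNT, which overlapped, although the hairpin 64 libraries of that line read 4.05, 3.03 and 6.12%. NUMB read 53.9, 43.6, 40 and 39.1% with hairpin 65 in MOLM13 against 7.50, 24.6 and 25.5% (24.97 ± 6.07 points, limma adjusted p = 0.4), a call lost without any 1 of the 7 libraries (adjusted p up to 0.547). Of 248 pairs called with hairpin 65 in MOLM13, 69 were also called with hairpin 64 at day 4 (27.8% of 248 and 15.5% of 444), 68 of them in the same direction, and 73 in MV4;11 with hairpin 64 (29.4%, and 15.2% of 480), 72 of them in the same direction.

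The day 12 comparison in MOLM13 gave the most calls of the 6. Its pairs had a median standard error of 3.87 points, against 5.6 at day 4. Their median absolute difference was 4.52 points, against 5.53 at day 4, so the larger count does not show a larger typical change. Of 5041 clusters tested, 196 were included more and 263 less (9.11%), against a background of 5.47% (2.38% and 3.09%) and 4.78% over all event types, and 63 and 100 had an adjusted p of 0.05 or less. PTK2B read 26.1, 27.8 and 26.9% against 94.3, 92.5 and 93.3% (66.44 ± 0.701 points, limma adjusted p = 0.000147). The libraries at day 12 lay close together for PTK2B. BZRAP1, which encodes a protein that binds the peripheral benzodiazepine receptor, read 74.5, 75.1 and 73.2% against 13.3, 13.7 and 12.4% at an 840-base exon (-61.1 ± 0.631 points, limma adjusted p = 0.000147). APP, the amyloid precursor protein, read 56.7, 38.7 and 50.0% with shNT and 100% in every hairpin 64 library at a 54-base exon (51.54 ± 4.99 points, limma adjusted p = 0.0358). Of the 444 pairs called at day 4 in MOLM13, 243 were called at day 12 (54.7%, and 32.4% of 749), and all 243 went the same way. Exon levels at the 2 times come from separate cultures and instruments.

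Hairpin 64 against hairpin 65 in MV4;11 is the only comparison here that uses no control library, so it is free of the libraries that chose the exons. Of 4946 clusters tested, 79 were included more with hairpin 64 and 165 less (4.93%), against a background of 3.08% (1.07% and 2.01%) and 2.67% over all event types, and 3 and 11 had an adjusted p of 0.05 or less. DNM2 at its 139-base exon read 73.7, 73.6 and 75% with hairpin 64 and 38.8, 38.6 and 36.6% with hairpin 65 (36.08 ± 0.784 points, limma adjusted p = 0.00485). FMNL3 read 87.3, 90.6 and 85.9% against 38.2, 30.4 and 33.3% (53.97 ± 2.54 points, limma adjusted p = 0.0308). INF2 read 19.3, 14.7 and 16.3% against 49.2, 53.1 and 49.0% (-33.68 ± 1.81 points, limma adjusted p = 0.038). The 2 hairpins did not overlap in any of these exons. ACOT9, read by a second junction pair, stood at 20.9, 17.2 and 16.6% against 77.4, 82.0 and 70.1% (-58.26 ± 3.55 points, limma adjusted p = 0.0455). BAZ2B read 21.3, 11.8 and 13.0% against 66.1, 59.8 and 68.5% (-49.4 ± 3.77 points, limma adjusted p = 0.0634). MBNL1 at its 54-base exon was 43.43 ± 4.03 points higher with hairpin 64 (limma adjusted p = 0.102) and TRERF1 50.56 ± 5.14 points higher (limma adjusted p = 0.122). FAM179B, a microtubule regulator, differed by -56.53 points (hairpin 64 minus 65), but its call was lost without hairpin 65 library 1 or 3 (limma adjusted p up to 0.632), and BZRAP1 differed by -50.86 points, a call lost without any hairpin 64 library (limma adjusted p up to 0.523). MYO5A differed by -48.68 points, a call lost without any hairpin 64 library or hairpin 65 library 1 (limma adjusted p up to 0.604).

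The pairs called in MOLM13 at day 4 were followed in this MV4;11 comparison, which shares no library with it. Of 286 pairs called as included less in MOLM13, 250 were lower with hairpin 64 than with hairpin 65 in MV4;11 and 36 higher, with a median of -9.48 points, and 80 were called lower and 0 higher. Of 152 called as included more, 128 were higher and 24 lower, with a median of 9.15 points, and 41 were called higher and 0 lower. The 9978 pairs not called in MOLM13 had a median of -0.438 points, with 140 called lower (1.4%) and 71 higher (0.712%). In MV4;11 the mean with hairpin 65 lay between those of shNT and hairpin 64 for 188 of the 286 pairs (65.7%) and 110 of the 152 (72.4%), against 4001 of the 9978 (40.1%). The histogram of hairpin 64 minus hairpin 65 shows the 3 sets.

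**Figure D3:**
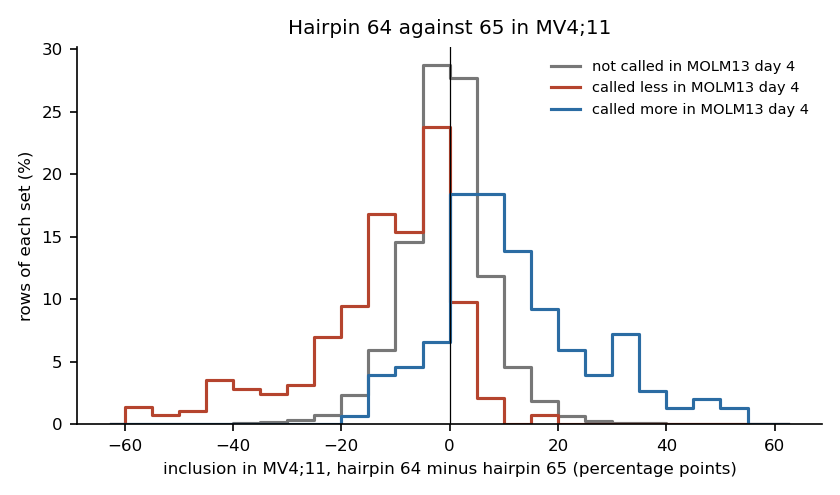
Difference in inclusion between hairpin 64 and hairpin 65 in MV4;11, in percentage points (horizontal axis), as the share in percent (vertical axis) of the junction pairs called less, called more or not called with hairpin 64 in MOLM13 at day 4. The 286 pairs called less centre at -9.48 points and the 152 called more at 9.15, on either side of the 9978 not called at -0.438.

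MBNL1 level and exon level were then set side by side in each library. Among pairs called with hairpin 64 in both lines, 110 included less and 63 included more had a value in all 28 libraries. Hairpin 64 in those lines chose these pairs, so the levels with hairpin 64 and in those controls are a description. The median inclusion of the 110 pairs was 60.3 to 66.1% over the shNT libraries, 39.0 to 50.7% with hairpin 65 and 13.8 to 18.1% with hairpin 64. The median of the 63 pairs was 28.6 to 43.2% with shNT, 50.8 to 64.1% with hairpin 65 and 77.8 to 89.1% with hairpin 64. The 3 kinds of library did not overlap on either measure. Within the 4 hairpin 65 libraries of MOLM13, library 1 had the least MBNL1, at 8.26 RPKM against 13.0, 14.3 and 15.4. Library 1 was also the farthest in the hairpin 64 direction for 112 of 177 pairs (63.3%), against 21, 22 and 22 for libraries 2, 3 and 4. Over the 113 of these pairs included less, the median was 39.1% in library 1 and 46.0, 52.5 and 49.5% in the others. The plot of MBNL1 against median inclusion shows every library.

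**Figure D4:**
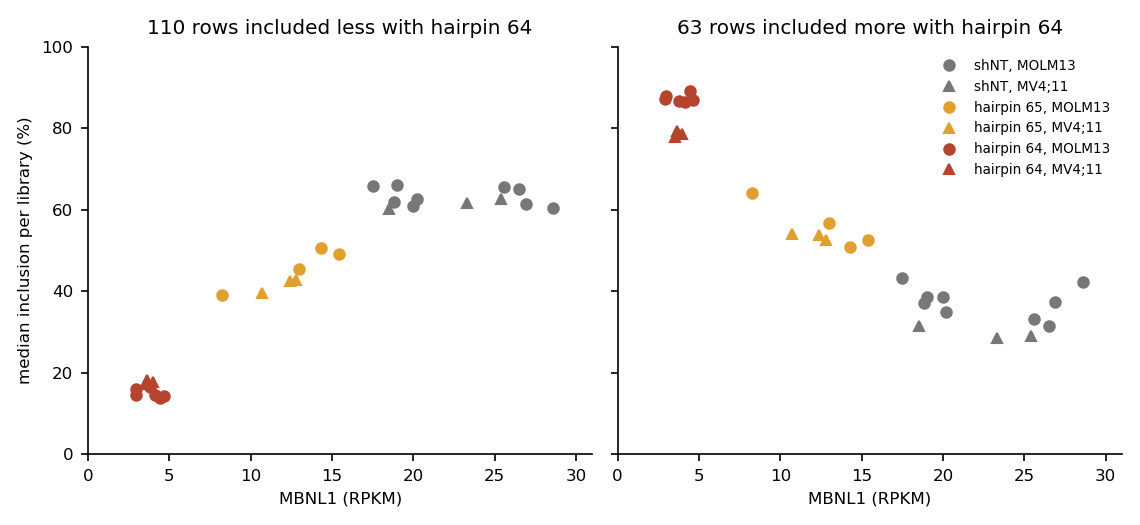
MBNL1 RPKM (horizontal axis) against the median inclusion in percent (vertical axis) of 110 junction pairs included less (left) and 63 included more (right) with hairpin 64 in both lines, with 1 point per library. Hairpin 65 libraries, at 8.26 to 15.4 RPKM, lie between the hairpin 64 libraries (2.94 to 4.65 RPKM) and shNT.

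Partly included exons were then counted in gene lists by function. The lists and the exons were chosen with earlier results of these data known, so each count is a description beside the counts over all partly included exons. With hairpin 64 at day 4 in MOLM13, where 6.13% of all 4878 member clusters were called with a median difference of -1.34 points, actin, microtubule and adhesion genes had 6 included more and 11 less of 53 clusters (32.1%, median -4.29 points). Endocytosis and vesicle traffic had 4 and 9 of 49 (26.5%, median -3.94), and regulators of small GTPases 5 and 11 of 63 (25.4%, median -5.02). ARHGAP17, a GTPase activating protein of the last list, read 39.6, 40.5 and 43.0% against 7.18, 7.25 and 9.01% at a 49-base exon (-33.19 ± 1.12 points, limma adjusted p = 0.00564). A list drawn mainly from genes with exons known from myotonic dystrophy had 6 included more and 9 less of 35 clusters (42.9%, median -5.26). The count takes every member cluster of the listed genes, not only the exons known from the disease. The list also holds INF2 and CD47, which the study takes from Fuchs corneal dystrophy and from stem cell differentiation, and some of its genes are in other lists. APP, on that list, read 72.5, 72.7 and 70.7% against 99.5, 99.3 and 99% (27.29 ± 0.643 points, limma adjusted p = 0.00278). The groups did not overlap in APP or ARHGAP17.

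In the other lists a smaller share of clusters was called. Splicing factors and RNA-binding proteins had 1 included more and 3 less of 77 clusters (5.19%, median -0.658 points). RBM6, an RNA-binding protein of that list, read 70.4, 69.4 and 67.6% against 57.6, 59.9 and 54.6% (-11.75 ± 1.65 points, limma adjusted p = 0.145). Chromatin regulators had 4 and 5 of 120 (7.5%). Centrosome and spindle genes had 1 and 3 of 66 (6.06%), among them INCENP, a chromosomal passenger protein, at 51.1, 47.2 and 55.2% against 7.84, 6.41 and 13.3% at a 12-base exon (-41.96 ± 2.96 points, limma adjusted p = 0.0326). Kinases and phosphatases had 4 and 9 of 94 (13.8%), Notch and Wnt signaling 3 and 3 of 34 (17.6%), and apoptosis regulators 2 and 1 of 28 (10.7%). In the last, MADD, a death domain protein that activates RAB GTPases, read 73.6, 75.7 and 77.6% against 94.7, 98.7 and 96.2% (20.89 ± 1.55 points, limma adjusted p = 0.0355). For hairpin 64 against 65 in MV4;11, where 4.93% of member clusters were called, the shares were 27.3% for actin, microtubule and adhesion, 24.5% for endocytosis, 27.8% for the myotonic dystrophy list, 14.3% for Notch and Wnt signaling, 8.96% for small GTPase regulators, 8.82% for centrosome and spindle, 8.51% for kinases, 7.14% for apoptosis, 6.61% for chromatin and 5.13% for splicing factors. INCENP differed by -35.19 ± 3.6 points in that comparison, hairpin 64 minus 65 (limma adjusted p = 0.122).

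Sequence features of the moved exons were read from the genome, which the rule did not use. Of exons included less with hairpin 64 in both lines, 60 could be located, and of those included more, 32. They were set beside 3653 member exons tested in all 5 comparisons and called in none. Exons included less had a median length of 58.5 bases, and 13 of 60 (21.7%) were 30 bases or shorter. Exons included more had a median of 115.5 bases with 1 of 32 (3.12%) that short, and uncalled exons a median of 113 with 70 (1.92%). A multiple of 3 was the length of 51 (85%) of those included less, 23 (71.9%) of those included more and 43.5% of those uncalled. Whole coding exons made up 81.7%, 84.4% and 57.5%.

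The motif YGCY was counted on the transcribed strand in the exon and in the 250 bases of intron on either side. Downstream of exons included less there were 2.07 motifs per 100 positions, against 1.85 for exons included more and 1.26 for uncalled exons. Upstream the values were 1.55, 2.56 and 1.28, and in the exon 1.18, 2.14 and 1.48. Exons included more therefore had the highest value upstream and inside the exon, and exons included less the highest downstream and the lowest inside. At least 1 motif stood in the exon for 53.3% of those included less, 87.5% of those included more and 72.7% of those uncalled, and shorter exons have fewer positions for it. In the introns GC content was higher in the called sets, at 48.4% in both downstream against 43.9%, and 45.4% and 46.1% upstream against 43.3%. Inside the exon it did not follow the density, since exons included less had the lowest density but not the lowest GC. Exon GC content was 49.8% for those included less, 55% for those included more and 49.5% for those uncalled. Its part in the motif densities was not tested. The bar charts of motif density and exon length show these values.

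**Figure D5:**
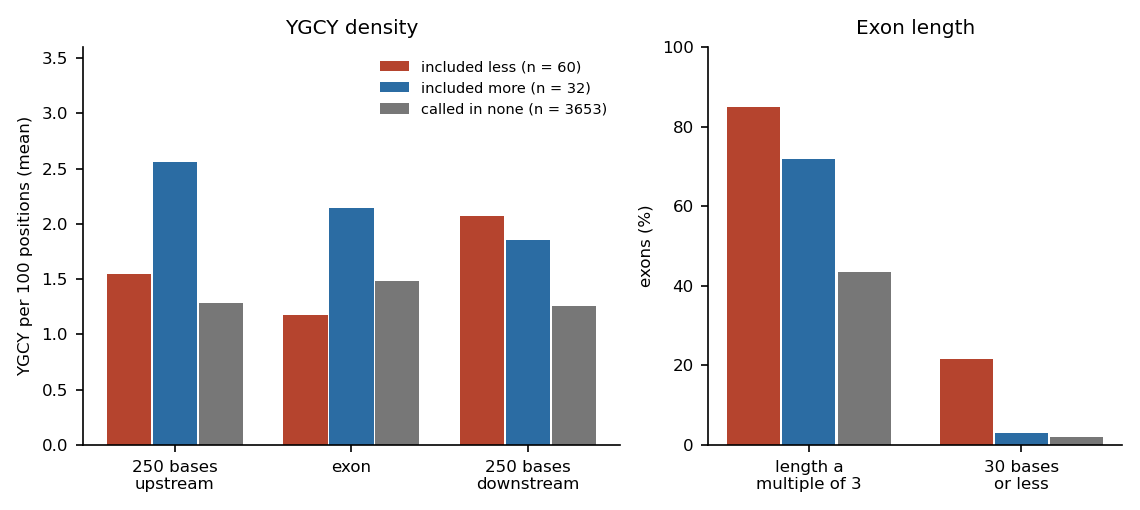
Mean YGCY motifs per 100 positions in the 250 bases upstream, the exon and the 250 bases downstream (left), and the share in percent of exons by length (right), for 60 exons included less, 32 included more and 3653 called in no comparison. Density downstream is 2.07 for exons included less against 1.26, density upstream is 2.56 for exons included more against 1.28, and 21.7% of exons included less are 30 bases or shorter against 1.92%.

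Expression of the host genes was compared by limma on log2(RPKM + 1), and a gene was called at 0.01 or less by unadjusted p if it also changed 1.5-fold on that scale, which understates the change of low genes. The share of host genes called was close to that of all genes. With hairpin 64 at day 4 in MOLM13, 52 were higher and 35 lower of 3794 (2.29%, against 2.42% of all genes), or 143 and 111 with the replicate block, and 20 to 78 and 17 to 52 with 1 library left out, where hairpin 64 library 1 or 2 and shNT library 1 or 2 moved the counts by over 1.5 times. In MV4;11 with hairpin 64 the counts were 148 and 85 of 3773 (6.18%, against 6.51%), and they ranged over 68 to 409 and 59 to 189 with 1 library left out, the highest without shNT library 3, with only hairpin 64 library 2 leaving them within 1.5 times. With hairpin 65 they were 86 and 47 of 3793 in MOLM13 (3.51%, against 3.24%), and 34 to 264 and 20 to 79 with 1 library left out, the highest without shNT library x1, with only hairpin 65 library 2 leaving them within 1.5 times. In MV4;11 with hairpin 65 they were 62 and 59 of 3785 (3.2%, against 3.63%), and 31 to 317 and 40 to 103, the highest without shNT library 3, with only hairpin 65 library 3 leaving them within 1.5 times. At day 12 they were 101 and 71 of 3766 (4.57%, against 5.52%). Among genes with a called exon, 16 of 277 (5.78%) changed in level at day 4 in MOLM13, 32 of 302 (10.6%) in MV4;11 with hairpin 64 and 33 of 411 (8.03%) at day 12, and 5 of 163 (3.07%) and 5 of 147 (3.4%) with hairpin 65.

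A few host genes of the exons above changed in level too. CCDC88C rose to 6.03 ± 0.486 RPKM from 2.84 ± 0.298 with hairpin 64 in MV4;11 (SD, n = 3 each, 0.87 on the log2 scale, limma adjusted p = 0.0116) and to 5.77 from 3.46 at day 12 in MOLM13 (limma adjusted p = 6.01e-05). FAM188A rose to 6.24 from 3.15 RPKM in MV4;11 (limma adjusted p = 0.0145) and to 9.06 from 4.38 at day 12 (limma adjusted p = 2.68e-05). INF2 fell to 5.99 from 10.2 RPKM at day 12 (limma adjusted p = 0.000101), and LRCH4 to 16.9 from 26.1 (limma adjusted p = 4.42e-05). FGFR1 was low throughout that comparison, at 0.542 against 1.34 RPKM (limma adjusted p = 4.38e-05). The splicing values come without junction read counts, so the depth behind any exon level is unknown and no counting interval can be given.

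The 4 sets of control libraries were close to each other within MOLM13. Over 8756 pairs with a value in every control, the median absolute gap between mean levels was 4.21 to 4.53 points among the MOLM13 sets and 5.64 to 5.85 points between any MOLM13 set and MV4;11. Gaps over 20 points numbered 199, 258 and 289 within MOLM13 and 495, 464 and 504 against MV4;11. Some exons with a large gap split the MOLM13 sets as well. MEMO1, a regulator of cell motility, read 8.33, 14.3 and 0% at day 4, 56.5, 0 and 0% in the second set and 63.9, 70.7 and 50.0% at day 12, while MV4;11 shNT read 92.5, 69.5 and 71.7%. CUX1, a homeodomain transcription factor, read 8.45, 8.16 and 10.8%, then 19.1, 12.1 and 31%, then 21.2, 22.4 and 28.9% in the MOLM13 sets, and 83.3, 69.7 and 46.0% in MV4;11. Among these control libraries CUX1 separated the lines, whereas MEMO1 separated the day 12 and MV4;11 libraries from most others. These gaps are a description, since the same libraries chose the exons.

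MEMO1 also stood at 61.9 to 78.6% in the hairpin 65 libraries of MOLM13, above all 3 libraries of their shNT set, and was not called there (limma adjusted p = 0.548). A full split was counted where the 9 MOLM13 libraries of day 4 and the second shNT set did not overlap the 10 of hairpin 65 and day 12. It held for 14 of 8518 pairs with a value in all of them, 7 of these over 20 points apart. MEMO1 did not meet it, since its second shNT set overlapped the day 12 shNT libraries. Of the 248 pairs called with hairpin 65 in MOLM13, 4 were split. The cause of the split was not tested.

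Whether hairpin 64 had a different effect in MOLM13 at day 4 than in MV4;11 was tested as an interaction. Of 4736 member clusters, 49 had a higher and 67 a lower difference in MOLM13 (2.45%), against a background of 1.7% over cassette exon clusters (0.706% and 0.989%) and 2.18% over all event types, and 0 and 1 had an adjusted p of 0.05 or less. The counts were 70 and 84 with the replicate block, and 101 and 110 without MV4;11 shNT library 3. DNM2 at its 139-base exon gained 12.03 ± 1.88 points more in MOLM13 (limma adjusted p = 0.146). NUMA1 lost 19.2 ± 4.97 points less there (limma adjusted p = 0.659), a call lost without hairpin 64 library 1 or 3 or shNT library 1 or 2 of MOLM13, or hairpin 64 library 1 or 2 of MV4;11 (adjusted p up to 0.859). APP gained less in MOLM13 (-18.08 ± 3.48 points, limma adjusted p = 0.294), where it began at 72.0% against 53.4% in MV4;11 and ended at 99.2 and 98.8%. None of these named differences passed an adjusted p of 0.05.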

How the data were processed

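RNA-seq of 28 libraries from 2 human cell lines was used, grouped by the deposited labels. Per the labels and the study's methods, the authors mapped the reads to hg19 (GRCh37) using STAR and deposited RPKM per gene from AltAnalyze. They also deposited a PSI fraction per splicing event from MultiPath-PSI, without junction read counts. The deposited values were not normalized again, and 0 columns belonged to other samples. The splicing depth per library is therefore unknown: the files give only that 9846 to 11075 of the 11133 junction pairs had a value in a library. The methods give other numbers of MV4;11 libraries than the labels, which were followed, and the second MOLM13 shNT set was used for hairpin 65 because both carry the same treatment text.

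Inclusion was the PSI fraction, or 1 minus it where the examined junction was the longer of the pair. The fraction was tested for events measured in more than 50% of each group's libraries with limma 3.58.1 in R 4.3.3 (tables read with data.table, version 1.17.8), with an interaction term between lines, and p-values were adjusted over all events. Calls needed an unadjusted p of 0.01 or less and a difference over 10 points, and each cluster was represented by its called pair of lowest p. Expression was tested on log2(RPKM + 1) where the mean RPKM reached 1 in a group. The fits were tested on simulated data. Exons were placed by junction ends on the GRCh37 annotation, where 97.66% of 56437 cassette junction ends lay on an exon edge and 0.3172% after a shift by 1 base, and motifs were counted within 250 bases with Python 3.11.15 (numpy 2.4.6, pandas 2.3.3, pysam 0.24.0); plots used matplotlib 3.10.9.

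The members, gene lists and tests were chosen with earlier results of these data known. Exons were named by rank: the 10 largest changes in each direction called alike with hairpin 64 in MOLM13 at day 4 and in MV4;11, up to 12 called alike in all 5 comparisons, the 6 largest in each direction between the hairpins, those nearest the limits, 2 per gene list, the 6 largest gaps between the lines' controls and the 6 largest interactions. Some exons that these ranks picked are not reported here. In MOLM13 at day 4, same-numbered libraries deviated together (correlations 0.201, 0.105 and 0.345), so the replicate numbers were taken to pair them there. Hairpin 64 library 2, at 0.105, correlated more with an shNT library of another number, so the pairing is uncertain. In the other comparisons these correlations lay between -0.049 and 0.037. Alternatives were the log odds of inclusion, a value in every library, a single fit of all 9 groups, an adjusted p of 0.05, a replicate block, members chosen on the 9 other controls, each library left out, and, for expression, a pseudocount of 0.1 and no filter.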

Additional observations from a re-analysis of the deposited data

Results flagged for a closer look

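Among the 4 hairpin 65 libraries of MOLM13, 1 library lay far from the other 3 for 7 of the 60 named junction pairs with a value in all 4. All 60 were read in the same 4 libraries, and some lie on the same exon. They are not independent, so the count is not set against a chance rate. The measure is the gap of the extreme library to its nearest neighbor as a share of the range, set against Dixon's 95% critical value. It was 0.972 for GIT2, 0.847 for MTMR1 and 0.844 for NUMA1, and in each of these 3 exons library 1 was the lowest. Library 1 also had the least MBNL1, at 8.26 RPKM against 13.0, 14.3 and 15.4, and the part of that level in these values was not tested. In BAZ2B the measure was 0.836, with library 3 the highest, and in BZRAP1 0.917, with library 3 the lowest. INCENP, at 0.916, had library 2 highest at 47.4% against 22.5, 24.6 and 24.6%. MADD, at 0.934, had library 4 highest at 92.9% against 84.6 to 85.2%.

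For 9 named exons an interaction test called a difference in the hairpin 64 effect between MOLM13 at day 4 and MV4;11. The unadjusted p was at or under 0.01, with limma adjusted p between 0.125 and 0.762. SIGLEC7, NLRP1, ST8SIA5, THAP8, PTPN13 and NADK were named because their called interactions were the largest. Their calls were thus fixed by that choice. Such calls held for 2.45% of member clusters and 2.18% of clusters of all event types. The differences of the effects, MOLM13 minus MV4;11, were 12.03 points for DNM2, 19.2 for NUMA1 and -18.08 for APP, which are exons that moved the same way in both lines. ST8SIA5, a sialyltransferase, had 52.38 points, with 23.1 and 22.2% in the MOLM13 shNT libraries with a value against 63.6, 53.9 and 60.0% with hairpin 64, and 33.3, 44 and 50.0% against 22.9, 23.5 and 33.3% in MV4;11. SIGLEC7, a sialic acid receptor of immune cells, had -73.97 points, but only 2 shNT and 2 hairpin 64 libraries of MV4;11 had a value. NLRP1, an inflammasome sensor, had -53.21 points, and THAP8, a zinc finger protein, had -50.6. PTPN13, a tyrosine phosphatase, had -44.46, and NADK, the kinase that makes NADP, had -44.03. With the replicate block the calls of NLRP1, THAP8, PTPN13 and NADK were lost. Leaving out 1 library ended the call of NADK for 7 of 12 libraries (adjusted p up to 0.922), of NUMA1 for 6 (up to 0.859), of NLRP1 and THAP8 for 5 each (up to 0.831 and 0.927) and of PTPN13 for 3 (up to 0.916).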

How the results depend on the processing

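The adjusted p of 0.05 changed every count of clusters, and these values stand in the report: 17 and 31 (more and less) with hairpin 64 at day 4 in MOLM13, 2 and 0 with hairpin 65 there, in MV4;11 19 and 35 with hairpin 64 and 2 and 0 with hairpin 65, then 63 and 100 at day 12, and 3 and 11 between the hairpins. With 1 fit over all 9 groups, 328 were included less at day 4, 186 more and 168 less with hairpin 65 in MOLM13, 218 more with hairpin 64 in MV4;11, and 157 more and 147 less with hairpin 65 there. With the block and an adjusted p of 0.05 together, added after seeing the data, 0 more and 1 less remained at day 4. With the replicate block, 104 clusters were included less between the hairpins, and 143 host genes were higher and 111 lower at day 4. The block moved no other count by over 1.5 times, but 22 of 105 named exon results lost their call. It could not be fitted for hairpin 65 in MOLM13. Leaving out 1 library gave 77 to 192 more and 61 to 138 less with hairpin 65 in MOLM13, and 33 to 101 higher and 56 to 110 lower for the interaction. For host genes it gave 20 to 78 higher and 17 to 52 lower at day 4, 34 to 264 and 20 to 79 with hairpin 65 in MOLM13, 68 to 409 and 59 to 189 with hairpin 64 and 31 to 317 and 40 to 103 with hairpin 65 in MV4;11. Without a filter, hairpin 65 in MOLM13 gave 36 higher and 24 lower, hairpin 64 in MV4;11 57 higher, and hairpin 65 there 29 higher and 37 lower. With a pseudocount of 0.1, 137 were higher with hairpin 65 in MOLM13, 149 lower with hairpin 64 and 113 higher with hairpin 65 in MV4;11, and 180 higher at day 12. The cause of these moves was not tested.

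The cluster counts stayed within 1.5 times on the log odds scale (12 of 12), with a value in every library (14 of 14), with members chosen on the 9 other controls (10 of 10) and, in an alternative added after seeing the data, on inclusion junctions only (14 of 14). No result reversed. Of the named exon results, 110 of 110 kept their call with 1 fit, 100 of 110 on the log odds scale and 622 of 719 with 1 library left out. With a value in every library 107 of 107 did. That alternative fits the same values again and leaves out results with missing values, so it could hardly change a call. Groups of 3 or 4 libraries and the unknown junction depth limit the precision.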
